A study of Mus musculus with 18 samples.

Results

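The interferon-stimulated genes outside the Ifitm family are 48 mouse genes that cells switch on after interferon binds, followed here in developing invariant natural killer T (iNKT) cells with and without the kinase MST1. They were taken by name from general knowledge of the response, but with earlier results of these data known. Each was read from the brightest of the probe sets that carry its symbol alone. Of the 48 genes 44 had such a probe set. Ifi44, Dtx3l, Ifi47 and Gbp2 had none and were not used here. Mx1 stayed too dim for the test, which left 43 members among the 13034 genes tested.

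The cells were thymic T cells with a semi-invariant receptor for lipids on CD1d, sorted from C57BL/6 mice as T cell receptor beta positive, CD1d-tetramer positive and CD24 negative. The 2 genotypes were wild type (WT) and Mst1KO, in which a Cre recombinase under Cd4 control deletes the floxed Mst1 gene (Stk4), and so does so in every cell that has passed through a Cd4-expressing stage and not in iNKT cells alone. Each was sorted into 3 developmental stages: S1 lacks CD44 and NK1.1, S2 has CD44 but not NK1.1, and S3 has both. Every one of the 6 groups had 3 arrays, 18 in all, and the design names 3 mice of each genotype. The labels give no age and leave the source of each replicate unstated. The p-values therefore reflect only how far arrays of the same group lie apart, and part of that may be technical. In the comparisons of groups this spread was pooled over all 6 groups and moderated over all genes. It is not the spread of the 2 compared groups alone. The samples are bulk sorts, in which fewer cells of a type and less RNA per cell cannot be told apart.

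Interferons work through paired receptors and JAK kinases. Type I interferon, through the receptor chains encoded by Ifnar1 and Ifnar2, activates a complex with STAT2 and IRF9 that binds a promoter sequence called the ISRE. Interferon-gamma, through the products of Ifngr1 and Ifngr2, acts on promoters with a sequence called GAS, and IRF1, made early in that response, adds to it at ISRE-like sequences. The induced proteins sense foreign nucleic acid, block viral replication, attack the membranes around intracellular microbes, and load peptides on MHC class I. In the thymus, medullary epithelial cells release type I interferon without infection, and mature S3 iNKT cells are themselves a strong source of interferon-gamma.

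Both sequences stand in the promoters of many members, and those of 7 members whose RNA changed between groups or stages are shown, because they carry the recognition letters of the response. Capitals mark the matches, and each line holds the 150 bases before the RefSeq start, 5′ to 3′ on the gene's strand, in mouse assembly GRCm38.p6. The ISRE-like motif searched was GAAA, any 2 bases and GAAA again, on either strand, and the GAS-like motif was TTCNNNGAA, which reads the same on both strands. Neighbouring ISRE-like matches may overlap.
Irf1: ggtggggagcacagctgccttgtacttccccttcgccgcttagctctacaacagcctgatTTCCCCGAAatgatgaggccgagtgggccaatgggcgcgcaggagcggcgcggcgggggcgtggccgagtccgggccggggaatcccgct
Gbp3: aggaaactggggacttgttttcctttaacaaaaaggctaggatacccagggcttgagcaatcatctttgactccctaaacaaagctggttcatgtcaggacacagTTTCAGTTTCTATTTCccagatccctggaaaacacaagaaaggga
Gbp7: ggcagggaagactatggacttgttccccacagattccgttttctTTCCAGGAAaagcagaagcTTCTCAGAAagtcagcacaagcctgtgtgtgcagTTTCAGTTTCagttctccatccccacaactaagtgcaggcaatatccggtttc
Irgm2: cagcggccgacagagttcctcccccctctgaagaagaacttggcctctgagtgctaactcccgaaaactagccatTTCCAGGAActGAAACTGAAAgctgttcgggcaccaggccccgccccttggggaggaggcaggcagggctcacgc
Apol9b: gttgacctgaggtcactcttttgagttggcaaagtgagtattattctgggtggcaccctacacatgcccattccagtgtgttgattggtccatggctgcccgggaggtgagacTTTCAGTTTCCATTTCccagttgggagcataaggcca
Ifit1: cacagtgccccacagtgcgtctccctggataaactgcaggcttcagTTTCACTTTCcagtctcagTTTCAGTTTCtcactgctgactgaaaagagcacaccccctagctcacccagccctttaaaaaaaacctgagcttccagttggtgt
Oas3: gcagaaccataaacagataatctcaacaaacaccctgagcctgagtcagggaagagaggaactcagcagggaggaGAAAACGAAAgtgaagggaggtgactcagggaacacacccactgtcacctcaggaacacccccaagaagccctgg

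Irf1, at chr11:53769864-53770013 on the plus strand, holds a GAS-like match -90 to -82 bases from the start. Gbp3 (chr3:142559894-142560043, plus strand) and Apol9b (chr15:77728922-77729071, plus strand) each hold an overlapping pair of ISRE-like matches. Gbp7 (chr3:142530186-142530335, plus strand) and Irgm2 (chr11:58214827-58214976, plus strand) hold both kinds, and Ifit1 (chr19:34640739-34640888, plus strand) holds 2 separate ISRE-like matches. Oas3 (chr5:120777660-120777809, minus strand) holds 1. The RefSeq table gave a 300-base window, from 250 bases before to 50 after the start, for 36 of the 48 genes. An ISRE-like match was present in 18 of these 36 (50%), against 3.99% of the 27025 genes with a window, and a GAS-like match in 10 (27.8%), against 9.55%. Of the 36, 5 had both and 13 neither. The 7 shown were chosen because they hold a match. Irf7, Samd9l, Oasl2 and Cmpk2, whose RNA also changed from S2 to S3 in at least 1 genotype, had neither. An ISRE-like match was in 4 of 8 windows of members called higher from S2 to S3 in WT, and in 1 of 2 called lower. In Mst1KO it was in 3 of 5 and 0 of 3. The GTPase genes had an ISRE-like match in 6 of 7 windows and the antigen processing genes in 0 of 3. A match is a description of letters and no evidence of binding, and no match says only that these letters are not in the window.

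Values are log2 expression as deposited, so a difference of 1 is a 2-fold change, and the level of a probe set cannot be set against that of another gene. Differences are given ± SE of the fit and levels as mean ± SD, both with n = 3 arrays a group. A gene was called higher or lower at a Benjamini-Hochberg adjusted p under 0.05 in limma over all 13034 genes. Array medians lay between 4.81 and 4.93, and correlations between arrays of a group between 0.976 and 0.986. Stk4 itself was lower in Mst1KO at each stage, by -0.29 ± 0.11, -0.35 ± 0.11 and -0.39 ± 0.11, with no overlap of arrays and without a call (adjusted p = 0.34, 0.173 and 0.0767). Averaged over stages it was called lower, by -0.34 ± 0.06 (adjusted p = 0.0297). The sources used here do not say which part of the transcript the probe set reads, so this is a weak check of the genotype labels. T cell genes such as Cd3e and the iNKT regulator Zbtb16 were among the 8 measured iNKT and T cell markers, whose mean level lay between 9.20 and 10.67 on every array.

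Most of the response was present in every group and moved little. Over the 6 groups, the highest and lowest group means of a member differed by a median of 0.432, beside 0.411 for all genes tested. The range was under 0.5 for 23 of the 43 members and under 1 for 35. Tap1, the peptide transporter of MHC class I loading, varied least, by 0.14, with group means between 10.80 and 10.94. Stat2, a subunit of the type I response complex, and Xaf1, which promotes apoptosis, varied by 0.18 each. The 8 members that varied by more than 1 were Apol9b (3.46), Ifi204 (2.96), Iigp1 (2.12), Oasl2 (1.68), Gbp3 (1.29), Nlrc5 (1.19), Irgm2 (1.12) and Oas2 (1.06). Mst1KO S1 held the highest mean of 16 members and WT S3 that of 16 others, while Mst1KO S3 held the lowest mean of 17. The same was not counted over all genes, so these counts cannot be read as particular to the members.

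**Figure D1:**
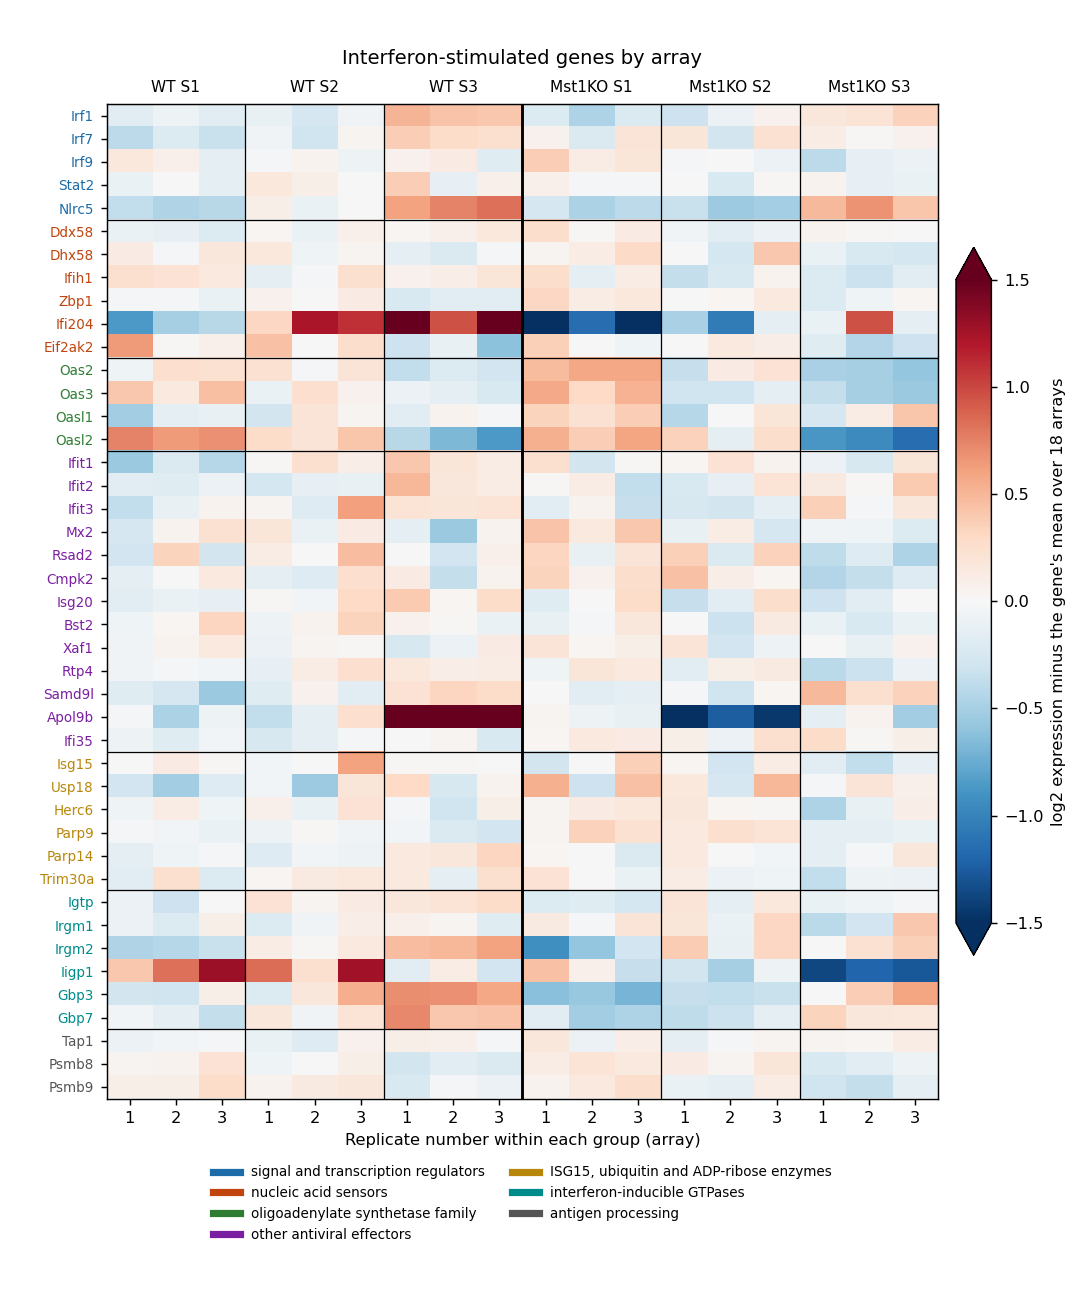
Log2 expression of the 43 members (rows, in role order) on the 18 arrays (columns, by genotype, stage and replicate number), as the difference from each gene's own mean, on a colour scale that ends at -1.5 and 1.5. Most rows stay pale, Apol9b is darkest red on the 3 WT S3 arrays and darkest blue on the 3 Mst1KO S2 arrays, and Iigp1 is dark blue on the 3 Mst1KO S3 arrays.

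In Mst1KO cells most of these genes lay close to their WT level at every stage, and a few were called lower. Apol9b was lower at S2 and S3, the GTPase gene Iigp1 at S2 and S3, the DNA sensor gene Ifi204 at S2 and S3, and the transactivator gene Nlrc5 at S2. No member was called higher in Mst1KO at any stage. At S1, 0 of 43 members were called (11 had an unadjusted p under 0.05), where 0.33% of all genes were called (0.261% higher and 0.0691% lower). The share of all genes with an unadjusted p under 0.05 was not counted, so the 11 cannot be read as particular to the members. At S2, 4 of 43 were lower, where 0.453% of all genes were called lower, 0.714% higher and 1.17% in either direction. At S3, 3 of 43 were lower, where 1.05% of all genes were called lower, 2.35% higher and 3.4% in either direction. The S2 and S3 counts include Ifi204, which passed the filter only through WT arrays, where it is high.

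The members' median difference between Mst1KO and WT was 0.08 at S1, -0.06 at S2 and -0.20 at S3, while the median of all genes tested was 0.00741, 0.0144 and 0.00971 at these stages. At S1 30 of 43 members lay above WT, at S2 14 and at S3 11. Differences under 0.5 in size were seen in 39 of 43 members at S1 and S2 and in 40 at S3 (90.7%, 90.7% and 93%), where 97.4%, 95.7% and 94.9% of all genes lay within that size. The standard error of a member's difference had a median of 0.133. Arrays of the 2 genotypes did not overlap for 11 members at S1, 9 at S2 and 15 at S3, and such separation was found for 18.1%, 16.8% and 23% of all genes.

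**Figure D2:**
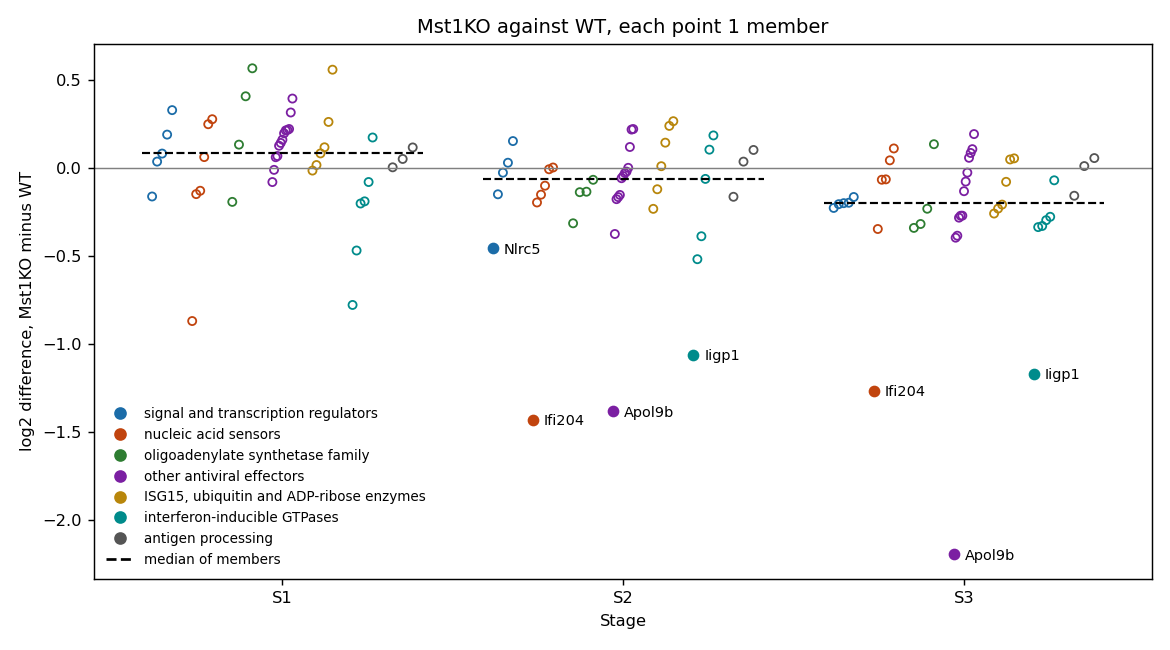
Log2 difference between Mst1KO and WT of each of the 43 members at S1, S2 and S3, coloured by role. Filled, named points passed the test, open points did not, and dashed lines are the members' medians (0.08, -0.06 and -0.20). The named points lie at or below -0.46, and the open points crowd around 0, with Ifi204 and Iigp1 at S1 the lowest of them.

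Apol9b, an apolipoprotein L gene that interferon induces and whose product acts against viruses, had the largest difference between genotypes of any member at S3. In WT it measured 6.01, 5.56 and 5.96 in S1, 5.68, 5.90 and 6.29 in S2 and 8.60, 7.95 and 7.55 in S3. In Mst1KO it measured 6.08, 5.96 and 5.92 in S1, 4.33, 4.81 and 4.59 in S2 and 5.91, 6.09 and 5.52 in S3. At S1 the genotypes overlapped, at S2 every Mst1KO array lay below every WT array, and at S3 the Mst1KO arrays were near the WT S1 and S2 arrays while all WT S3 arrays stood higher. The difference was 0.14 ± 0.23 at S1 (adjusted p = 0.875), -1.38 ± 0.23 at S2 (adjusted p = 0.00785) and -2.19 ± 0.23 at S3 (adjusted p = 2.7e-05), the last a level 4.58-fold lower. The S3 call held without any 1 array, and the S2 call was lost without Mst1KO S2 replicate 1 (adjusted p = 0.0515). Averaged over stages it was -1.15 ± 0.10 (adjusted p = 0.00243).

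Apol9b has a near-identical copy, Apol9a, and a probe set may read RNA of either. Apol9a, looked at after the Apol9b values were seen, measured 7.45 on average in WT S3 and 6.56 in Mst1KO S3. That difference, -0.89 ± 0.30, had no overlap of arrays and was not called (adjusted p = 0.132), and at S2 the difference was 0.12 ± 0.30. How the signal divides between the copies is uncertain.

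Iigp1 encodes a GTPase that gathers on the vacuoles of intracellular parasites. Its WT arrays read 7.60, 8.02 and 8.48 in S1, 8.03, 7.44 and 8.46 in S2 and 7.03, 7.31 and 6.91 in S3. Its Mst1KO arrays read 7.63, 7.28 and 6.86 in S1, 6.93, 6.70 and 7.12 in S2 and 5.83, 6.01 and 5.92 in S3. Mst1KO was lower on average at every stage, with overlap at S1 and none at S2 or S3. The differences were -0.78 ± 0.25 at S1 (adjusted p = 0.225), -1.06 ± 0.25 at S2 (adjusted p = 0.0492), -1.17 ± 0.25 at S3 (adjusted p = 0.0157) and -1.002 ± 0.11 averaged over stages (adjusted p = 0.00645). Leaving out single arrays ended the S2 call in 5 of 6 fits and the S3 call in 3 of 6, and the call on the average held in all 6.

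Ifi204 encodes a nuclear sensor of the Ifi200 family that binds DNA. WT cells gave 3.09, 3.46 and 3.53 in S1, 4.26, 5.17 and 5.05 in S2 and 5.74, 4.91 and 5.72 in S3. Mst1KO cells gave 2.40, 2.81 and 2.26 in S1, 3.47, 2.91 and 3.82 in S2 and 3.85, 4.90 and 3.81 in S3. At each stage all 3 Mst1KO arrays lay below all 3 WT arrays, and within each genotype the level was lowest at S1. The differences were -0.87 ± 0.32 at S1 (adjusted p = 0.298), -1.43 ± 0.32 at S2 (adjusted p = 0.0398), -1.27 ± 0.32 at S3 (adjusted p = 0.0404) and -1.19 ± 0.12 over the stages (adjusted p = 0.0038). Ifi204 is a dim probe set, above the median of its array on 5 of 18 arrays, all of them WT. It entered the test through the group where it is high, so its counts add no support, and with no filter its calls at S2 and S3 were lost. Its family has close copies that a probe set may share.

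Nlrc5, which turns on MHC class I genes and their processing machinery, was called between genotypes at S2 and at neither other stage. WT values were 8.25, 8.18 and 8.21 in S1, 8.71, 8.53 and 8.63 in S2 and 9.23, 9.37 and 9.45 in S3. Mst1KO values were 8.37, 8.15 and 8.23 in S1, 8.30, 8.08 and 8.12 in S2 and 9.12, 9.30 and 9.04 in S3. From S1 to S2 the WT arrays had moved up and the Mst1KO arrays had not, and by S3 both were high. The difference was 0.04 ± 0.10 at S1, -0.46 ± 0.10 at S2 (adjusted p = 0.0316) and -0.20 ± 0.10 at S3 (adjusted p = 0.329). The S2 call was lost in 5 of 6 fits without an array. Of its target genes among the members, Tap1 differed by 0.04 ± 0.09, Psmb8 by 0.10 ± 0.08 and Psmb9 by -0.16 ± 0.10 at S2, none called.

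**Figure D3:**
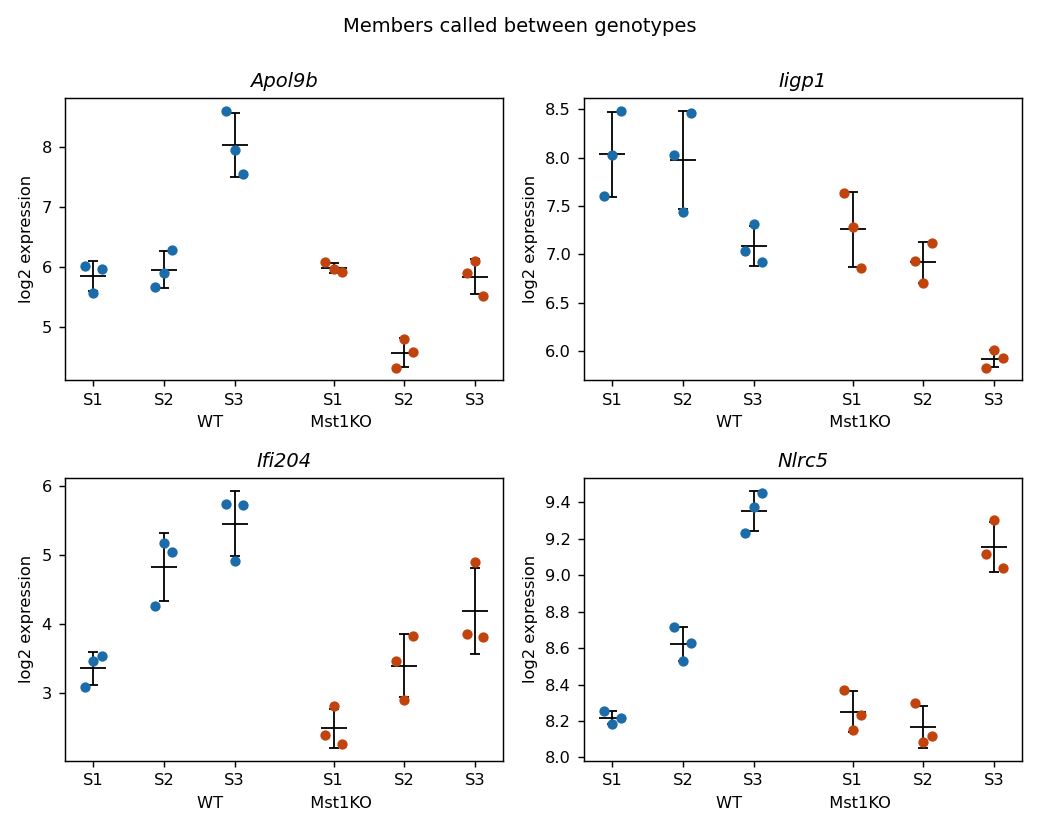
Log2 expression of Apol9b, Iigp1, Ifi204 and Nlrc5 on each array, WT in blue and Mst1KO in orange at S1, S2 and S3, with the mean (long bar) and SD (short bars) of 3 arrays. Vertical axes differ between panels and do not start at 0. Mst1KO S3 lies below WT S3 for Apol9b, Iigp1 and Ifi204 with no overlap of arrays, and Nlrc5 parts clearly at S2.

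The number of S2 calls depended on single arrays: it was 1 without WT S2 replicate 3, 0 without Mst1KO S2 replicate 1, 1 without Mst1KO S2 replicate 2 and 2 without Mst1KO S2 replicate 3. At S3 it was 1, Apol9b, without Mst1KO S3 replicate 1 or without Mst1KO S3 replicate 3. Averaged over stages, 3 members were lower and 0 higher (Apol9b, Iigp1 and Ifi204), where 0.698% of all genes were called lower and 2.17% in either direction, and this count was 3 in each fit without 1 value. Ifi204 again entered through WT arrays alone, so it adds no support to this count.

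The remaining regulators did not pass between genotypes. Irf1, Irf7, Irf9 and Stat2, the factors that carry the signal to the promoters, differed by -0.16, 0.33, 0.19 and 0.08 at S1. At S3 all 5 regulators were on the lower side, from -0.23 (Irf7) to -0.17 (Stat2), and 0 of them had an unadjusted p under 0.05. For 2 of them the arrays did not overlap, as was so for 23% of all genes. Irf7, which amplifies type I interferon production, went from 0.33 ± 0.13 at S1 to -0.23 ± 0.13 at S3 (adjusted p = 0.363 and 0.426).

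Among the RNA and DNA sensors, the RIG-I gene Ddx58 was at 0.28 ± 0.08 at S1 (adjusted p = 0.197) and the MDA5 gene Ifih1 at -0.35 ± 0.12 at S3 (adjusted p = 0.158). Zbp1, which senses Z-form nucleic acid and can start necroptosis, was at 0.25 ± 0.08 at S1 (adjusted p = 0.254). Dhx58 and the RNA-activated kinase gene Eif2ak2 lay between -0.15 and 0.06 at all 3 stages.

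Oligoadenylate synthetases make the second messenger that turns on RNase L, and Oasl1 and Oasl2 are synthetase-like members of that family. Oas2 was at 0.41 ± 0.13, -0.14 ± 0.13 and -0.23 ± 0.13 at S1, S2 and S3, none called. Oas3 went from 0.13 ± 0.11 through -0.31 ± 0.11 to -0.32 ± 0.11. Oasl1 reached 0.56 ± 0.18 at S1 (adjusted p = 0.221), and Oasl2 was at -0.34 ± 0.13 at S3 (adjusted p = 0.196).

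Of the 13 antiviral effectors tested, 12 were not called between genotypes at any stage. Ifit1, which binds the ends of viral RNA, was at 0.39 ± 0.14 at S1 and -0.28 ± 0.14 at S3 (adjusted p = 0.27 and 0.326). Rtp4 came nearest at S3, with -0.40 ± 0.11 (adjusted p = 0.0702). Ifi35 was higher by about the same amount at each stage, 0.20 ± 0.11, 0.22 ± 0.11 and 0.19 ± 0.11, and its average, 0.20 ± 0.06, was not called (adjusted p = 0.146). With the mean of its 2 probe sets in place of the brighter one that average was 0.05 (adjusted p = 0.744). Bst2, which holds budding virus at the cell surface, and the viperin gene Rsad2 lay between -0.27 and 0.21 at all 3 stages.

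Isg15, the ubiquitin-like protein that is among the best known products of type I interferon, was at -0.02 ± 0.17, -0.23 ± 0.17 and -0.23 ± 0.17, with adjusted p = 0.989, 0.62 and 0.555. Its protease gene Usp18, which also restrains the type I receptor, was at 0.56 ± 0.23 at S1 (adjusted p = 0.372). The ADP-ribosyltransferase gene Parp9 was at 0.26 ± 0.09 at S1 and 0.24 ± 0.09 at S2 (adjusted p = 0.252 and 0.237). None of the 6 tested members of this group was called at a stage.

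The guanylate-binding genes Gbp3 and Gbp7, which attack microbe-containing vacuoles and are typical of interferon-gamma, were lower at every stage without a call. Gbp3 differed by -0.47 ± 0.17, -0.52 ± 0.17 and -0.34 ± 0.17, and by -0.44 ± 0.09 on average (adjusted p = 0.0583). Gbp7 differed by -0.20 ± 0.13, -0.39 ± 0.13 and -0.30 ± 0.13, and by -0.30 ± 0.08 on average (adjusted p = 0.106). With a variance trend and a robust fit both averages were called, and so was that of Ifi35, which made the count 6, with 5 lower and 1 higher. At S3 all 6 GTPase genes lay below WT, with a median of -0.31, and 4 had no overlap of arrays, as did 23% of all genes.

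Maturation from S2 to S3 changed more members past the test than the comparison of genotypes at any stage. In WT, 10 of 43 members rose and 5 fell, where 10.4% of all genes were called higher and 13.2% lower. With each array centred on its median the WT split was 3 higher and 5 lower. The regulators Irf1, Irf7 and Nlrc5 rose, with Ifit2, Samd9l, Apol9b, Parp14, Irgm2, Gbp3 and Gbp7. Zbp1, Eif2ak2, Oas2, Oasl2 and Iigp1 fell. In Mst1KO 6 rose and 6 fell, where 8.01% of all genes were called higher and 9.18% lower.

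In either direction, in WT 34.9% of members were called, against 23.6% of all genes, and in Mst1KO 27.9% against 17.2%. The median member moved by 0.03 in WT (-0.01 with each array centred on its median) and -0.07 in Mst1KO, beside all-gene medians of -0.000977 and -0.0259. Arrays of S2 and S3 did not overlap for 17 members in each genotype, where they parted for 34.9% of all genes in WT and 36.3% in Mst1KO.

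Irf1 and Nlrc5 led the regulators. The WT arrays of Irf1 gave 7.81, 7.90 and 7.82 in S1, 7.86, 7.73 and 7.92 in S2 and 8.48, 8.41 and 8.38 in S3. The Mst1KO arrays gave 7.77, 7.51 and 7.76 in S1, 7.67, 7.89 and 8.05 in S2 and 8.15, 8.19 and 8.32 in S3. S3 stood above S1 and S2 in both genotypes with no overlap, by 0.59 ± 0.10 over S2 in WT (adjusted p = 0.000477) and 0.35 ± 0.10 in Mst1KO (adjusted p = 0.0268). Nlrc5, whose array values are given above, rose by 0.73 ± 0.10 in WT (adjusted p = 3.45e-05) and 0.99 ± 0.10 in Mst1KO (adjusted p = 2.41e-06).

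Irf7 moved in WT. Its arrays there read 8.69, 8.89 and 8.75 in S1, 9.03, 8.79 and 9.13 in S2 and 9.46, 9.37 and 9.33 in S3, and those of Mst1KO read 9.15, 8.87 and 9.29 in S1, 9.27, 8.82 and 9.32 in S2 and 9.20, 9.11 and 9.15 in S3. WT S3 lay above all WT S2 arrays, while the Mst1KO stages overlapped throughout. The change was 0.40 ± 0.13 in WT (adjusted p = 0.0392) and 0.02 ± 0.13 in Mst1KO (adjusted p = 0.943), and the difference of these changes, -0.38 ± 0.19, was not called (adjusted p = 0.475). Irf9 and Stat2 changed by 0.01 and 0.03 in WT.

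The GTPase genes that rose did so by modest amounts. Gbp3 measured 5.82, 5.81 and 6.19 in S1, 5.90, 6.27 and 6.65 in S2 and 6.80, 6.79 and 6.68 in S3 in WT. It measured 5.47, 5.53 and 5.40 in S1, 5.76, 5.73 and 5.77 in S2 and 6.10, 6.47 and 6.70 in S3 in Mst1KO. Its S3 arrays were above its S2 arrays in both genotypes, by 0.48 ± 0.17 in WT (adjusted p = 0.0449) and 0.66 ± 0.17 in Mst1KO (adjusted p = 0.0103), and 1 WT S2 array came close to the S3 level. Gbp7 measured 9.13, 9.03 and 8.81 in S1, 9.34, 9.12 and 9.37 in S2 and 9.89, 9.58 and 9.60 in S3 in WT. In Mst1KO it measured 9.02, 8.65 and 8.71 in S1, 8.79, 8.85 and 9.03 in S2 and 9.51, 9.34 and 9.33 in S3. The S3 arrays were again the highest in each genotype, with increases of 0.41 ± 0.13 (adjusted p = 0.0249) and 0.50 ± 0.13 (adjusted p = 0.0103). Other guanylate-binding genes are close in sequence, so their probe sets may share RNA.

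Irgm2, a regulator of the effector GTPases, was called at a different step in each genotype. WT arrays were 7.84, 7.86 and 7.95 in S1, 8.40, 8.30 and 8.43 in S2 and 8.75, 8.78 and 8.90 in S3. Mst1KO arrays were 7.37, 7.71 and 8.0 in S1, 8.66, 8.18 and 8.60 in S2 and 8.28, 8.51 and 8.65 in S3. In WT each stage stood above the one before, and in Mst1KO S2 and S3 overlapped above S1. The WT steps were 0.49 ± 0.15 (adjusted p = 0.0819) and 0.43 ± 0.15 (adjusted p = 0.0437), and the Mst1KO steps 0.79 ± 0.15 (adjusted p = 0.00306) and 0.00 ± 0.15 (adjusted p = 0.999). Neither difference of steps between genotypes was called (0.29 ± 0.21 and -0.43 ± 0.21, adjusted p = 0.881 and 0.465). Igtp and Irgm1, of the same family, were not called between stages in either genotype.

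Iigp1 was the GTPase gene called lower between these stages. From S2 to S3 it fell in WT (-0.89 ± 0.25, adjusted p = 0.0151) and in Mst1KO (-0.996 ± 0.25, adjusted p = 0.0102).

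Of the 4 genes of the oligoadenylate synthetase family, Oas2 and Oasl2 fell from S2 to S3 in both genotypes, and Oas3 and Oasl1 were not called. Oasl2, a synthetase-like protein that binds RNA, measured 8.94, 8.82 and 8.88 in S1, 8.46, 8.38 and 8.60 in S2 and 7.77, 7.51 and 7.32 in S3 in WT. In Mst1KO it measured 8.72, 8.56 and 8.78 in S1, 8.53, 8.05 and 8.45 in S2 and 7.31, 7.23 and 7.04 in S3. Every S3 array lay below every S2 array in each genotype. The drop from S2 to S3 was -0.95 ± 0.13 in WT (adjusted p = 5.43e-05) and -1.15 ± 0.13 in Mst1KO (adjusted p = 1.16e-05).

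Oas2 measured 8.11, 8.43 and 8.40 in S1, 8.41, 8.16 and 8.37 in S2 and 7.81, 7.97 and 7.89 in S3 in WT. It measured 8.65, 8.76 and 8.76 in S1, 7.83, 8.30 and 8.40 in S2 and 7.69, 7.68 and 7.60 in S3 in Mst1KO. S3 was the lowest stage in both, with no array reaching the S2 range. Its S2 to S3 change was -0.42 ± 0.13 in WT (adjusted p = 0.0256) and -0.52 ± 0.13 in Mst1KO (adjusted p = 0.0103), and in Mst1KO it had already fallen from S1 to S2 (-0.54 ± 0.13, adjusted p = 0.0166).

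Oas3 fell from S1 to S2 in Mst1KO, where its arrays were 8.97, 8.70 and 8.93 in S1, 8.10, 8.10 and 8.26 in S2 and 8.04, 7.90 and 7.84 in S3. The WT arrays were 8.81, 8.55 and 8.85 in S1, 8.30, 8.65 and 8.46 in S2 and 8.32, 8.26 and 8.17 in S3. The Mst1KO S1 arrays stood clear above S2, and the WT S1 and S2 arrays overlapped. The step was -0.71 ± 0.11 in Mst1KO (adjusted p = 0.000756) and -0.27 ± 0.11 in WT (adjusted p = 0.242). Their difference, -0.45 ± 0.16, was not called (adjusted p = 0.565). Oasl1, an inhibitor of Irf7 translation, was not called between stages in either genotype.

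Of the sensors, Eif2ak2 and Zbp1 fell in WT. Eif2ak2, which halts translation when it meets double-stranded RNA, measured 7.56, 6.95 and 7.004 in S1, 7.37, 6.93 and 7.19 in S2 and 6.61, 6.81 and 6.31 in S3 in WT. In Mst1KO it measured 7.28, 6.92 and 6.86 in S1, 6.93, 7.07 and 7.03 in S2 and 6.75, 6.49 and 6.62 in S3. Its S3 arrays lay below its S2 arrays in both, with a change of -0.58 ± 0.17 in WT (adjusted p = 0.0195) and -0.39 ± 0.17 in Mst1KO (adjusted p = 0.137). Zbp1 changed by -0.26 ± 0.08 in WT (adjusted p = 0.0353) and -0.14 ± 0.08 in Mst1KO (adjusted p = 0.292). The 3 RIG-I-like receptor genes Ddx58, Dhx58 and Ifih1 were not called between stages.

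Effectors split. Apol9b rose from S2 to S3 in both genotypes, by 2.08 ± 0.23 in WT (adjusted p = 4.18e-06) and 1.27 ± 0.23 in Mst1KO (adjusted p = 0.000925). In Mst1KO that rise followed a fall of the same order from S1 to S2 (-1.41 ± 0.23, adjusted p = 0.000952), where WT moved by 0.11 ± 0.23. Samd9l, which restrains cell growth and viruses, had WT arrays of 7.71, 7.64 and 7.34 in S1, 7.71, 7.95 and 7.73 in S2 and 8.11, 8.21 and 8.17 in S3. Its Mst1KO arrays were 7.88, 7.72 and 7.75 in S1, 7.88, 7.60 and 7.92 in S2 and 8.37, 8.13 and 8.24 in S3. S3 stood highest in both, up by 0.37 ± 0.12 (adjusted p = 0.0287) and 0.45 ± 0.12 (adjusted p = 0.0119) over S2. Cmpk2, a mitochondrial nucleotide kinase, fell in Mst1KO (-0.52 ± 0.15, adjusted p = 0.0251) and was at -0.03 ± 0.15 in WT. Ifit2 rose in WT by 0.42 ± 0.15 (adjusted p = 0.044) and was at 0.23 ± 0.15 in Mst1KO. Isg15, Usp18, Rsad2 and Ifit3 were not called between stages in either genotype, with S2 to S3 differences from -0.51 to 0.39.

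Parp14, an ADP-ribosyltransferase that tunes cytokine signals, rose in WT by 0.32 ± 0.10 (adjusted p = 0.0292) and was at -0.04 ± 0.10 in Mst1KO. Parp9 fell in Mst1KO by -0.33 ± 0.09 (adjusted p = 0.0164) and was at -0.14 ± 0.09 in WT. Psmb8, an immunoproteasome subunit, had nearly the same change in both, -0.23 ± 0.08 in WT (adjusted p = 0.0556) and -0.27 ± 0.08 in Mst1KO (adjusted p = 0.0298). Psmb9 followed with -0.23 ± 0.10 and -0.23 ± 0.10, neither called, and Tap1 stayed at 0.13 ± 0.09 and 0.10 ± 0.09.

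**Figure D4:**
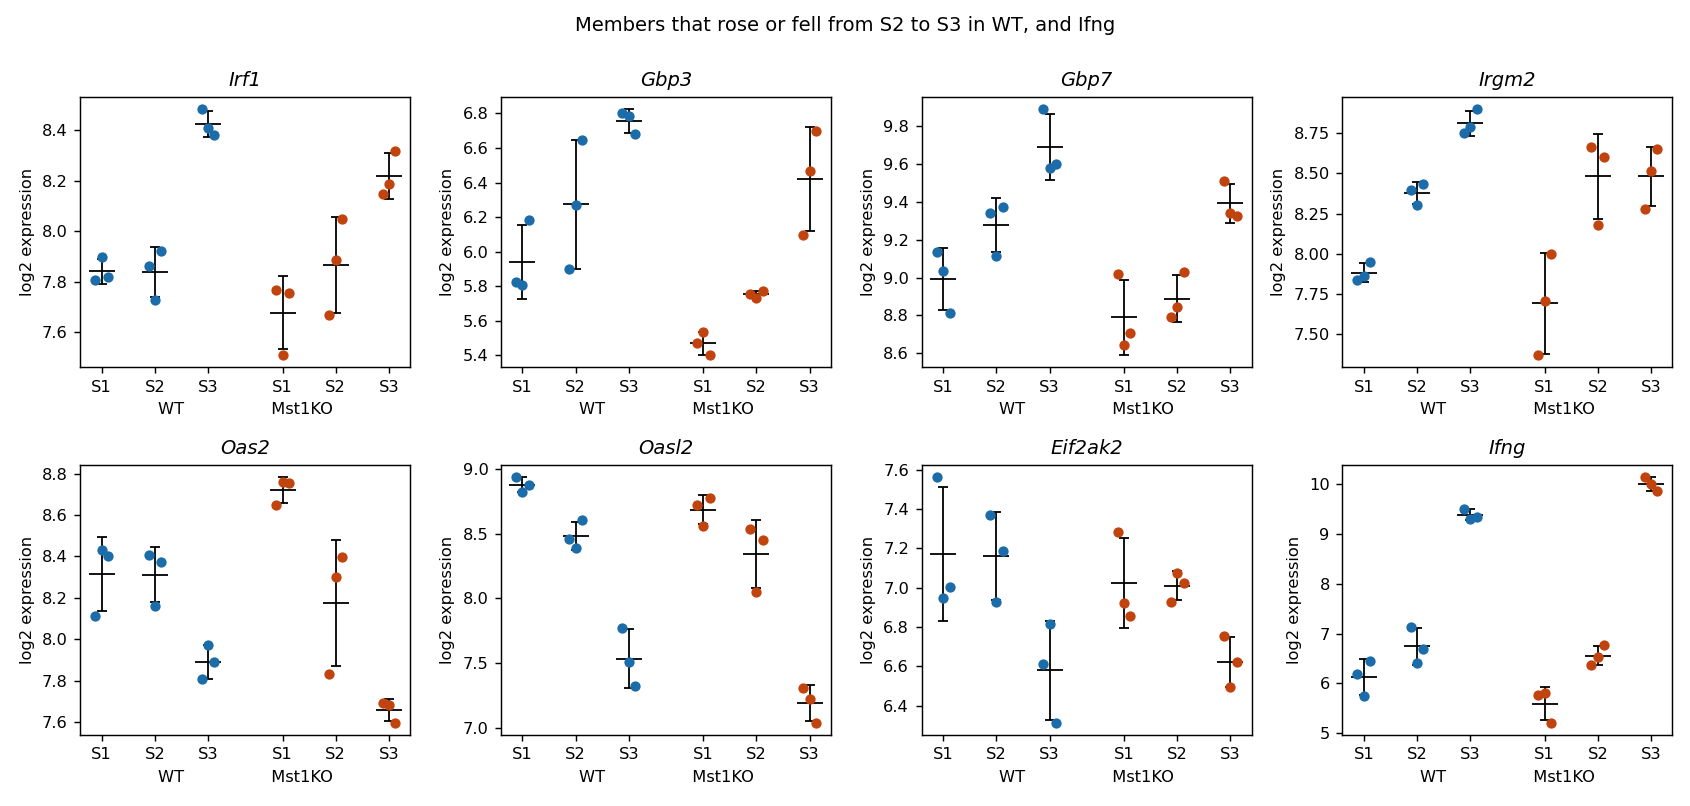
Log2 expression on each array of 7 members that changed from S2 to S3 in WT, and of the interferon-gamma gene Ifng, WT in blue and Mst1KO in orange, with mean (long bar) and SD (short bars) of 3 arrays. Vertical axes differ between panels and do not start at 0. Irf1, Gbp3 and Gbp7 stand highest at S3 in both genotypes, Oas2 and Oasl2 lowest, and Ifng stands highest at S3 in both genotypes.

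The WT and Mst1KO stage comparisons share no arrays, and their calls were set side by side. They do share 1 estimate of each gene's spread, taken from all 18 arrays, so the calls do not come from separate tests. Of the 10 members that rose in WT 6 also rose in Mst1KO (60% of the WT list and 100% of the Mst1KO list of 6), namely Irf1, Nlrc5, Samd9l, Apol9b, Gbp3 and Gbp7. Of the 5 that fell in WT 3 also fell in Mst1KO (60% of 5 and 50% of 6), namely Oas2, Oasl2 and Iigp1. The overlap over all genes was not counted, so these shares cannot be read as particular to the members. The other 4 that rose in WT were Ifit2, at 0.23 in Mst1KO, and Irf7, Irgm2 and Parp14, at -0.04 to 0.02 there. No member passed the test of the genotype difference in the S2 to S3 change (0 of 43, with 3 at an unadjusted p under 0.05), where 0.368% of all genes passed. How many of all genes had that unadjusted p was not counted. The nearest by size was Apol9b, at -0.81 ± 0.32 (adjusted p = 0.34).

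**Figure D5:**
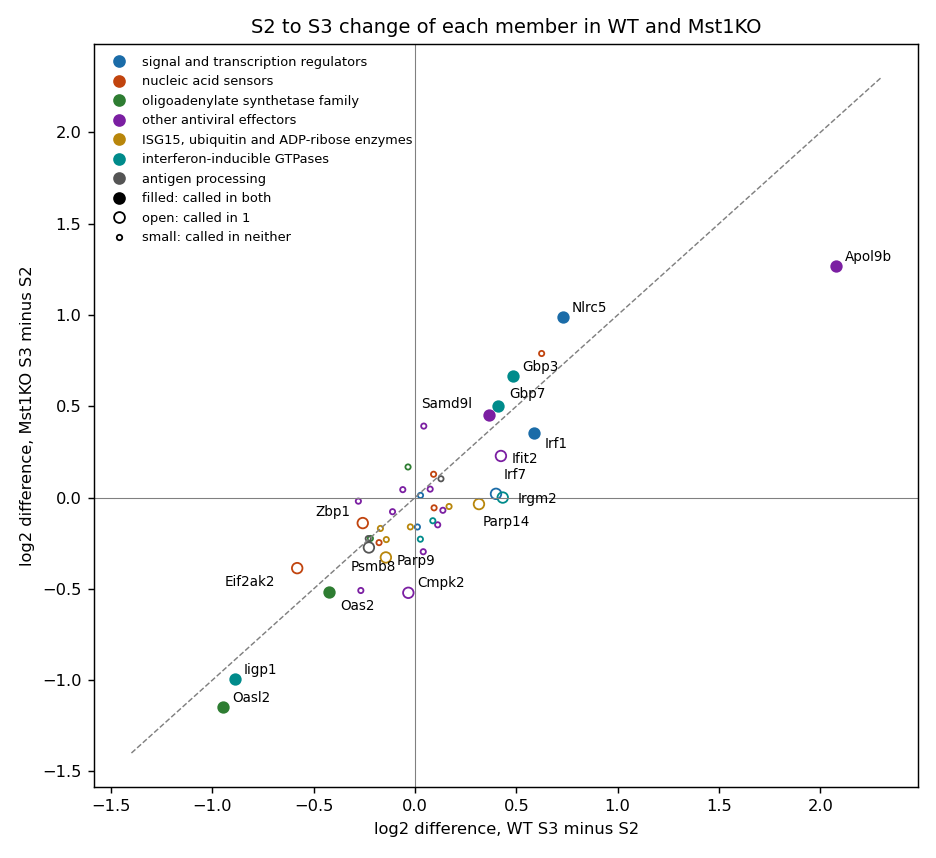
S2 to S3 log2 difference of each of the 43 members in WT (horizontal) and in Mst1KO (vertical), coloured by role, with a dashed line of equality. Filled points were called in both genotypes, open circles in 1, and small points in neither. Oasl2 and Iigp1 lie low on both axes, Nlrc5 and Gbp3 high on both, and Apol9b lies below the line at 2.08 and 1.27.

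The WT count of 15 rested on single arrays. It was 7 without WT S2 replicate 1, 7 without WT S2 replicate 3, 8 without WT S3 replicate 1, 8 without WT S3 replicate 2 and 6 without WT S3 replicate 3. Irf1, Nlrc5, Apol9b and Oasl2 were called in all 6 such fits, and Irgm2 in 0. In Mst1KO the count of 12 was 7 without Mst1KO S3 replicate 1.

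The step from S1 to S2 moved few members. In WT 3 rose and 0 fell, where 2.7% of all genes were called higher, 1.14% lower and 3.84% in either direction. These were Nlrc5 (0.41 ± 0.10, adjusted p = 0.0266), Ifi204 (1.47 ± 0.32, adjusted p = 0.0148) and Ifit1 (0.52 ± 0.14, adjusted p = 0.0461). Of these, Ifi204 entered the test only through WT S2 and S3 arrays, where it is high. Ifit1 arrays gave 7.72, 8.06 and 7.84 in S1, 8.30, 8.52 and 8.37 in S2 and 8.68, 8.46 and 8.39 in S3 in WT. They gave 8.51, 7.997 and 8.29 in S1, 8.31, 8.49 and 8.33 in S2 and 8.19, 8.04 and 8.45 in S3 in Mst1KO. WT S1 was below every other WT array, and the Mst1KO stages overlapped, with a step of 0.11 ± 0.14. In Mst1KO 1 member rose (Irgm2) and 3 fell (Oas2, Oas3 and Apol9b), where 3.77% of all genes were called higher, 2.9% lower and 6.67% in either direction. No call was shared by the genotypes at this step. Arrays of S1 and S2 did not overlap for 9 members in WT and 12 in Mst1KO, and they parted for 19.9% and 25.7% of all genes. The WT count of 3 was 0 without WT S1 replicate 1, 1 without WT S1 replicate 3, 1 without WT S2 replicate 1, 1 without WT S2 replicate 2 and 0 without WT S2 replicate 3.

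The genotype difference of the S1 to S2 change had a median of -0.18 over the members, beside 0.00176 over all genes, and 33 of 43 members were below 0. None was called (8 had an unadjusted p under 0.05), where 0.0153% of all genes were called. How many of all genes had that unadjusted p was not counted. Apol9b had the largest difference, -1.52 ± 0.32 (adjusted p = 0.213), followed by Oasl1 at -0.63 ± 0.25 (adjusted p = 0.642). The members that were called in 1 genotype at this step are therefore not shown to differ between genotypes.

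Around the members, other genes of the pathway were read from a list of 88, of which 66 were tested. Between genotypes 1 was higher at S1 (Slfn5, an interferon-induced growth regulator, 0.63 ± 0.12), 1 higher at S2 (the cytokine signal inhibitor Socs3, 0.48 ± 0.10), and at S3 2 were higher and 5 lower. Called in either direction were 1.52%, 1.52% and 10.6% of the 66 at S1, S2 and S3, against 0.33%, 1.17% and 3.4% of all genes. The S3 share includes 3 of 3 Ifitm genes, which were listed with earlier results of these data known, so it cannot be read as a result about the list. The S3 genes were Ifngr2 (0.84 ± 0.16) and the transcription factor gene Irf4 (1.26 ± 0.13) on the higher side, and Tlr7, the sensor of single-stranded RNA (-1.43 ± 0.19), Trafd1 (-0.39 ± 0.09) and 3 Ifitm genes on the lower side. Ifitm1, Ifitm2 and Ifitm3, which block viral entry, were at -2.21 ± 0.17, -3.77 ± 0.37 and -2.02 ± 0.27, at S3, where WT had risen over S2 by 2.41 ± 0.17, 3.43 ± 0.37 and 1.73 ± 0.27.

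With maturation, 23 of the 66 rose from S2 to S3 in WT and 6 fell, and 16 rose and 5 fell in Mst1KO, where 10.4% of all genes rose and 13.2% fell in WT and 8.01% and 9.18% in Mst1KO. Ifng itself rose by 2.65 ± 0.20 in WT and 3.44 ± 0.20 in Mst1KO. The 2 chains of its receptor moved apart: Ifngr1 rose by 1.92 ± 0.16 and 1.38 ± 0.16, and Ifngr2 fell by 2.18 in WT and 1.57 in Mst1KO. Of the guanylate-binding genes outside the member list, 4 rose with Gbp3 and Gbp7: Gbp4 by 0.41 ± 0.13 in WT, Gbp5 by 1.63 ± 0.26, Gbp8 by 0.80 ± 0.19 and Gbp9 by 0.86 ± 0.16, and all 4 rose in Mst1KO too. They were picked after their values were seen, from 30 tested other interferon-induced genes. Of these 30, 7 rose and 1 fell in WT (26.7% called, against 23.6% of all genes). In Mst1KO 7 rose and 2 fell (30%, against 17.2%). The JAK kinase genes Jak1 and Tyk2 rose by 0.32 ± 0.07 and 0.47 ± 0.09 in WT, and the inhibitor Socs1 by 0.63 ± 0.10. Ifnb1, the interferon-beta gene, was below the filter in all groups, at 3.10 to 3.59 on average.

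Some sorted cells may be of other types, and their markers were read beside the members. Of the 17 macrophage and dendritic cell markers 12 were tested and Cd14 was above the median of no array. The mean level of the list rose with stage in both genotypes, from 4.86 to 5.22 in WT S1 to 5.54 to 5.83 in WT S3, and from 4.93 to 5.14 in Mst1KO S1 to 5.74 to 6.02 in Mst1KO S3. At S2 it was higher in Mst1KO (5.41 to 5.57) than in WT (5.18 to 5.33), and 8 of the 12 tested markers lay above WT and 4 below. At S3 10 of the 12 lay above WT and 2 below, with C1qb called higher in Mst1KO. Itgax was called higher at S2, but it is dim, above the median on 3 arrays, all of them Mst1KO, so it entered the test through the genotype where it is high. The mean of 3 gamma-delta T cell markers was 7.37 to 7.55 in Mst1KO S3 and 5.96 to 6.47 in WT S3, and Cd163l1 and Blk among them were called higher in Mst1KO. Blk differed most, at 8.77 in Mst1KO S3 and 6.38 in WT S3. Sox13, the third, was at 6.46 and 6.28 and was not called. At S1 2 of the 3 lay below WT and 1 above. The sort took T cell receptor beta positive cells, and whether these markers follow gamma-delta T cells or the iNKT cells was not tested. The mean of 7 conventional T cell markers was 7.77 to 8.30 in Mst1KO S1, 7.35 to 7.64 in WT S1, and 6.11 to 6.29 over all S3 arrays. At S2 the mean of these conventional T cell markers was 6.965 to 7.389 in WT and 7.004 to 7.281 in Mst1KO. Whether this list follows other cells or the stage of the iNKT cells was not tested. Of the 8 plasmacytoid dendritic cell markers, Siglech, Ccdc162, Klk1 and Spib were above the median of no array, Cox6a2 and Tcf4 of all 18, and Ly6d and Cd300c of 17. The mean level of these 8 lay between 4.42 and 4.74 on every array, and none of the 4 tested was called between genotypes at a stage. Of the 5 B cell markers with a probe set, Ms4a1, Pax5 and Ebf1 were above the median of no array, Cd79a of 1 and Cd79b of 15. Klrb1c, which encodes the NK1.1 of the S3 gate, and Cd44 also rose at S3, so the gates can set part of each stage difference, and the part of other cells in any result was not tested.

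Mx1, the member under the filter, encodes a dynamin-like inhibitor of influenza virus that is a damaged gene in C57BL/6 mice. It was above the median of its array on 1 of 18 arrays, with 3.90 ± 0.16, 4.08 ± 0.16 and 4.94 ± 0.32 at S1, S2 and S3 in WT and 4.14 ± 0.13, 3.92 ± 0.17 and 4.50 ± 0.16 in Mst1KO.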

How the data were processed

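RNA was extracted with the RNeasy Micro kit, amplified with the NuGEN WTA Pico v2 protocol and hybridised to Affymetrix MoGene-2_0 arrays, after enrichment with CD8 microbeads that the labels call positive selection. Per the submitters' processing notes, the authors ran RMA in Expression Console 1.1, and the files they deposited hold 1 log2 value for each probe set and array, so background and array distributions were adjusted before deposit. The genome build and level of summary are not given in the sources used here.

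Of 41345 probe sets 23521 carry 1 symbol. A probe set stayed in if it exceeded the array median on 3 or more of the 18 arrays, and the brightest was taken for each gene, which gave 13034 genes. Groups were compared with limma 3.58.1 in R 4.3.3, with 1 mean for each of the 6 groups, moderated variances and Benjamini-Hochberg adjustment over all genes. The threshold for a call was an adjusted p of 0.05. For the genotype average, arrays that share a replicate number were first averaged across the stages, for a comparison of 3 against 3. The number of arrays limits the precision.

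The members and gene lists were chosen with earlier results of these data known. Any member could be named. Array values are given for members called between genotypes and for up to 4 of each role group with the lowest p between stages, where they add to the text. The other pathway genes named are those called between genotypes and up to 4 per comparison with the lowest p, with the guanylate-binding genes added after their values were seen. Promoters came from RefSeq (GRCm38.p6) by symbol. The fit was tested on simulated data. Alternatives were no filter or a stricter one, array weights, median centring, repeated quantile normalization, averaging of probe sets per gene, a robust fit with a variance trend, only the groups compared, replicate blocks, and leaving out each array. Figures were drawn with matplotlib 3.10.9.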

Additional observations from a re-analysis of the deposited data

How the results depend on the processing

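No call on a single member changed its direction under the alternatives run. The members' median for WT S3 against S2 (0.03) was -0.01 with arrays centred on their median and -0.01 without WT S2 replicate 1, and that for WT S2 against S1 (0.07) was -0.00677 without WT S2 replicate 3. The count of members called at S2 between genotypes (4) was 1 with no filter, 1 with array weights and 0 with only the groups compared. For WT S2 against S1 (3) it was 1 with only the groups compared, and for Mst1KO S2 against S1 (4) it was 2. For WT S3 against S2 (15) it was 8 with arrays centred on their median, 8 with array weights and 7 with only the groups compared. The average over stages (3) was 6 with the variance trend and robust fit. Leaving out 1 array gave 0 to 0 at S1, 0 to 3 at S2 and 1 to 3 at S3 between genotypes, 0 to 2 for WT S2 against S1, 6 to 10 for WT S3 against S2, 3 to 5 for Mst1KO S2 against S1, 7 to 12 for Mst1KO S3 against S2, 0 to 0 for both genotype differences of a stage change, and 3 to 3 for the average. Of 692 repeats of the calls on single members, 529 kept the call and 163 lost it. The share of all genes called depended on the filter and on the samples fitted: over the alternatives without left-out arrays it ran from 0.0384% to 1.24% at S1, 0.0307% to 2.76% at S2 and 1.35% to 6.96% at S3 between genotypes. Repeated quantile normalization moved the share of calls that were higher from 69.1% to 57.1% at S3 between genotypes and from 46.6% to 36% for Mst1KO S3 against S2. Of the 45 pairs of arrays with the same replicate number 3 correlated above 0.1 (median r 0.0346). Yet 15 of 18 arrays correlated best, on average, with their own number. Whether the numbers pair the arrays is therefore not settled, and the comparisons of groups did not treat them as paired. With the number as a replicate block 0, 3 and 4 members were called between genotypes at S1, S2 and S3, and 4 for the average. With 3 arrays a group, the median standard error of 0.133 leaves small differences unresolved.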
